A study of Mus musculus with 9 samples.

Results

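Lymphocytes make up a small share of the liver, and their transcripts were measured here against a background of hepatocyte RNA. Genes that mark T cells, B cells and natural killer (NK) cells were taken as 34 named members, 18 of T cells, 6 of B cells and 10 of NK and cytotoxic cells, each matched by its symbol to 1 of the 33211 genes of the count table. The liver RNA came from male mice of the strain C57BL/6 in the labels and C57BL6/J in the study's methods, 8 weeks old when feeding began and fed a high-fat diet (HFD) for 7 weeks. In the HFDfre group (n = 5 libraries) the opened diet had been kept in a freezer at -20 °C, and in the HFDfri group (n = 4) in a fridge at 4 °C. All mice received the same HFD, so both groups lack a comparison with ordinary chow, and the labels do not say whether animals were pooled.

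T cells recognise peptides through a receptor whose signal is carried by the CD3 chains and passed on by the kinases Lck and ZAP-70 to the adaptor LAT. B cells signal through membrane immunoglobulin with the CD79 pair, and the secreted form of that immunoglobulin is antibody. NK cells, which in the liver are joined by resident innate lymphoid cells that carry CXCR6, kill with perforin and granzymes and are kept alive by interleukin 15 acting through the receptor chain encoded by Il2rb. The liver is known as an organ rich in NK and innate-like T cells.

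Most of these genes were near the floor of detection. Library totals ran from 58614917 to 69353439 estimated counts, and 28 of the 34 members had a median count under 40 over the 9 libraries, 21 of them under 20. Of the 306 values that 34 genes give in 9 libraries, 37 were 0, which is 12.1%, and 62 were over 40. Every member had a count in some library, 19 had one in all 9, and 27 passed the filter on low counts. The 7 that did not were Cd3d, Cd5, Cd8b1, Cd28, Pax5, Ncr1 and Prf1. The limit that 3 counts set for a gene at 0 was between 0.0407 and 0.0578 CPM per library, where CPM is the count scaled to library size by TMM, edgeR's correction for the make-up of each library. Such limits cover counting error only. Of the members' values only 3 lay from 1 to 3 counts, so limits set at 3 counts may be too low. The counts are estimates whose low values pile up at 4: of the members' values 16 were equal to 4, 2 to 3 and 8 to 5, and among all genes 3990 values were 4, 2172 were 3 and 1840 were 5, so counting precision taken from these numbers is uncertain.

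**Figure D1:**
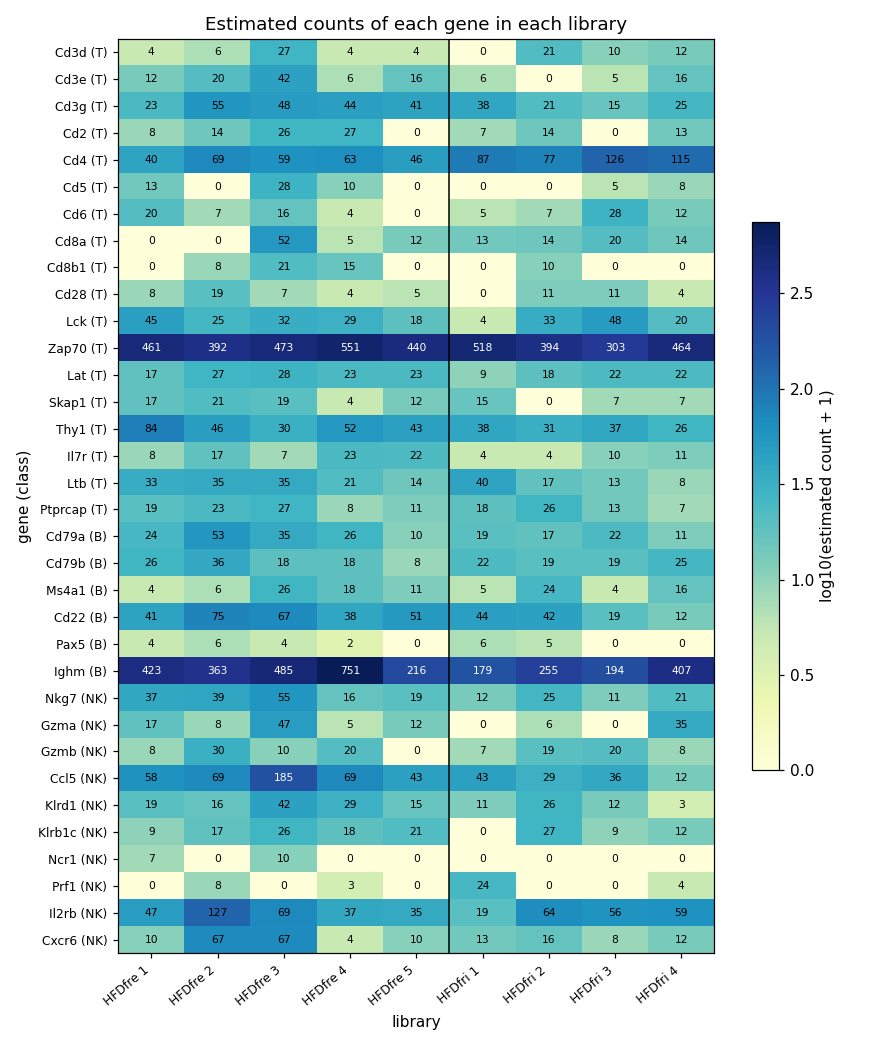
Estimated counts (printed in each cell, colour on a log10 scale) of the 34 genes (rows, with their class) in the 5 HFDfre and 4 HFDfri libraries (columns). Zap70 and Ighm stand above all other genes in every library, and zeros are spread over both groups.

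Tissue identity was checked first. The 8 hepatocyte markers, among them Alb and Apoa1, summed to between 89826 and 115150 CPM, whereas the 34 members together reached 16.2 to 32.5 CPM in HFDfre and 14.7 to 23.4 CPM in HFDfri. Per length of exon, 2 members stood apart from the rest of their class. Zap70, a T and NK cell kinase, had a mean level of 2.32 CPM per kilobase of exon, which was 14.2 times that of Cd3g, 28.8 times that of Cd3d, 44.2 times that of Cd3e and 15.6 times that of Lck. Ighm, the heavy chain of IgM, was at 2.99 CPM per kilobase, 11.6 times the level of Cd79a and 12.7 times that of Cd79b. Zap70 made up 56.0% of all counts of the T cell members and Ighm 77.7% of those of the B cell members, so sums over these classes are given without them below.

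**Figure D2:**
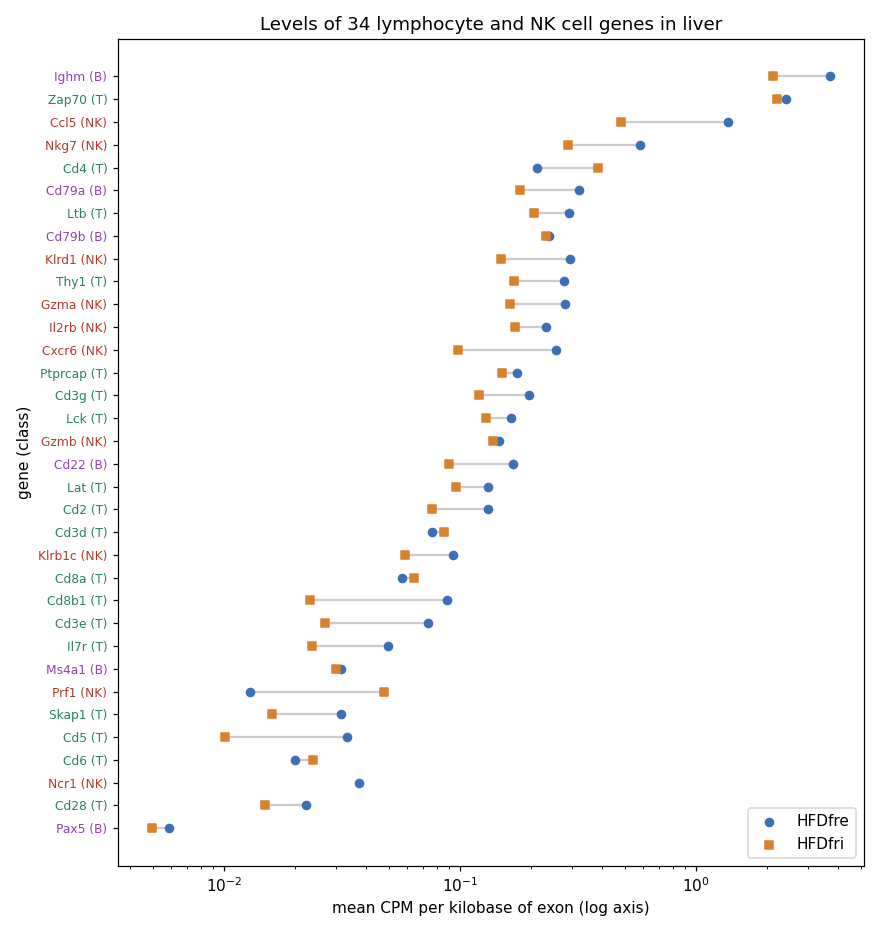
Mean CPM per kilobase of exon (log axis) of each gene in HFDfre (circles) and HFDfri (squares), ordered by the mean over all libraries, with the class in brackets and a grey line joining the groups. Ighm and Zap70 lead, Ccl5 and Nkg7 follow, and Pax5 is lowest; Ncr1 was at 0 in HFDfri and has no square.

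The diets were then compared, as HFDfri minus HFDfre. With the quasi-likelihood test of edgeR 0 of the 27 members tested passed an adjusted p of 0.05, a threshold that 1.05% of all 14220 genes tested passed. An unadjusted p under 0.05 was found for 3 members, Cd4, which was higher in HFDfri, and Ccl5 and Ighm, which were lower, or 11.1% of the members against 21.2% of all genes (9.79% lower and 11.4% higher) and 7.06% of the genes in the members' range of level. In all 34 members the CPM of the groups overlapped, whereas 7.69% of all tested genes had none, 3.66% lower and 4.02% higher in HFDfri. The members' share at an unadjusted p under 0.05 was thus below that of all genes, and rests on 3 genes. The share of genes at the members' level was also below it, so the lower share is not read as a trait of the members. The range of level is that of the 25 tested members under 2 CPM, 0.173 to 1.17 mean CPM. Of those 25, only Cd4 and Ccl5 had an unadjusted p under 0.05 by edgeR. Ighm, at 5.65 mean CPM, lies outside the range, so 11.1% and 7.06% cover unlike sets and are not ranked.

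The direction of the differences was uneven. Of the 27 members tested 24 had a log2 fold change under 0. This compares with 50.9% of all genes and 61.5% of those in the range of the tested members under 2 CPM. Of the 34 members, with no filter and no fit, 29 had a lower mean CPM in HFDfri and 5 a higher one. Of all 19775 genes with a count 52.4% had a lower mean in HFDfri, and of the 5168 genes in the same range of level as the 32 members under 2 CPM, 60.3% had, so weakly expressed genes leaned the same way. By class the mean was lower for 14 of 18 T cell, 6 of 6 B cell and 9 of 10 NK members. Among the genes tested the median log2 fold change was -0.47 for T cell members, -0.80 for B cell members and -0.86 for NK members, beside -0.01 over all genes tested and -0.16 over the 2803 tested genes in the range of level of the 25 tested members under 2 CPM. These medians describe genes that passed a filter and carry no test. In whole liver, fewer cells of a type and less RNA per cell cannot be told apart.

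**Figure D3:**
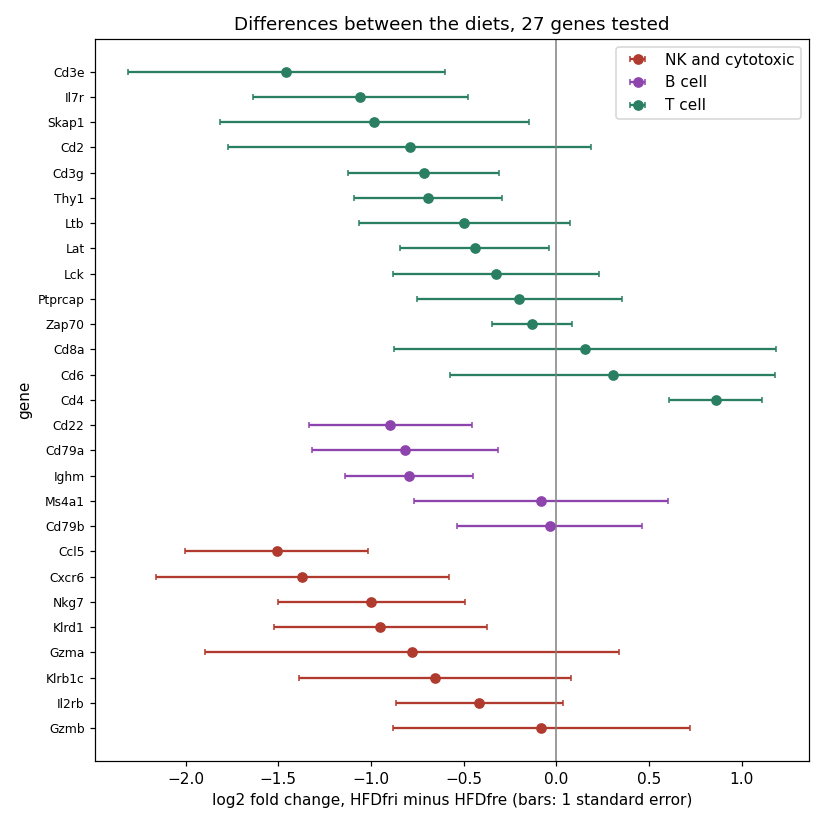
Log2 fold change (HFDfri minus HFDfre, edgeR) with 1 standard error for the 27 members tested, by class. Only Cd4, Cd6 and Cd8a lie above 0, Ccl5 is lowest at -1.51, and no gene passed an adjusted p of 0.05.

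The T cell receptor complex was sparse in both groups. Cd3g (ENSMUSG00000002033, chromosome 9, 44969572 to 44980431, GRCm38), which encodes the CD3 gamma chain, had 23, 55, 48, 44 and 41 counts in HFDfre 1 to 5 and 38, 21, 15 and 25 in HFDfri 1 to 4. As CPM it was at 0.443, 0.856, 0.734, 0.618 and 0.574 in HFDfre and 0.677, 0.290, 0.204 and 0.411 in HFDfri. HFDfri 1 lay inside the range of HFDfre, and HFDfri 2, HFDfri 3 and HFDfri 4 lay below all 5 HFDfre libraries. The log2 fold change was -0.72 ± 0.41 (SE), edgeR giving an adjusted p of 0.340, and it was -1.11 without HFDfri 1. Cd3e, the epsilon chain, was at 0 to 16 counts in HFDfri and 6 to 42 in HFDfre, and its log2 fold change of -1.46 ± 0.85 was not called by edgeR (adjusted p = 0.356). Cd3d, the delta chain, held 27 counts in HFDfre 3, 4 to 6 in the other HFDfre libraries and 0 to 21 in HFDfri. HFDfre 3 was the highest library for Cd3d and, at 42 counts, for Cd3e, and the second highest for Cd3g. HFDfri 2 held 21 counts of Cd3d and 0 of Cd3e. The 3 chains of one complex thus followed each other only in part, at counts this low.

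Cd4 was the one member higher in HFDfri at an unadjusted p under 0.05. Cd4 (ENSMUSG00000023274, chromosome 6, 124864692 to 124888221), the co-receptor of helper T cells that some mouse dendritic cells also carry, had 40, 69, 59, 63 and 46 counts in HFDfre and 87, 77, 126 and 115 in HFDfri. Its CPM was 0.770, 1.07, 0.902, 0.885 and 0.644 in HFDfre and 1.55, 1.06, 1.71 and 1.89 in HFDfri. HFDfri 1, HFDfri 3 and HFDfri 4 were above every HFDfre library, and HFDfri 2 lay just under HFDfre 2. Scaled by library totals alone the groups did not overlap, the highest HFDfre library being at 1.06 and the lowest HFDfri library at 1.16 CPM. The log2 fold change was 0.86 ± 0.25 (SE) and missed the threshold over all genes (edgeR adjusted p = 0.102). Across 18 alternative fits it stayed positive, from 0.75 to 1.01, and in the 17 that gave an adjusted p this ran from 0.0738 to 0.512, DESeq2 giving none. The 8 dendritic cell markers all had estimates under 0, their median being -0.59, and their part in the level of Cd4 was not tested. Cd8a, the alpha chain of the co-receptor of cytotoxic T cells, was at 0, 0, 52, 5 and 12 counts in HFDfre and 13, 14, 20 and 14 in HFDfri, and Cd8b1, its partner chain, was at 0 in 5 libraries. HFDfre 3 alone held most of the Cd8a counts of its group, and the log2 fold change was 0.15 ± 1.03.

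Zap70 (ENSMUSG00000026117, chromosome 1, 36761798 to 36782818) was the T cell member with the most counts, 392 to 551 in HFDfre and 303 to 518 in HFDfri. Its CPM was 8.87, 6.10, 7.23, 7.74 and 6.16 in HFDfre and 9.22, 5.45, 4.11 and 7.63 in HFDfri. HFDfri held both the highest and the lowest value, and the log2 fold change was -0.13 ± 0.22 (edgeR adjusted p = 0.774). HFDfri 1, where Zap70 was highest, had Lck at 4 counts and Cd3d at 0. Other T cell members were high there. Ltb, at 40 counts, was at its highest of the 9 libraries, and Cd3g and Thy1, at 38 counts each, at their highest within HFDfri. No annotated exon of another gene overlaps Zap70 in GENCODE M21. RefSeq places 3 transcription starts in the gene, and gene-level counts do not tell them apart. The windows from 250 bases before to 50 bases after each start (RefSeq, GRCm38.p6, 5′ to 3′) are shown because this gene departs from its class; capitals mark AGGAAG, a core sequence of ETS factors, and TGTGGT, the core bound by RUNX factors, searched on both strands.
Zap70 start 1, chr1:36761548-36761847, plus strand: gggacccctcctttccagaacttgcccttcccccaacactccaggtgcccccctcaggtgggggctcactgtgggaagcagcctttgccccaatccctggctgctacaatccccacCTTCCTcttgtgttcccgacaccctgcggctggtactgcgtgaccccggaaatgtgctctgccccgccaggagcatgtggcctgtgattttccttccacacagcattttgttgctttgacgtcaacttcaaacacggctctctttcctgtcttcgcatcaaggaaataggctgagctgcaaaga
Zap70 start 2, chr1:36764265-36764564, plus strand: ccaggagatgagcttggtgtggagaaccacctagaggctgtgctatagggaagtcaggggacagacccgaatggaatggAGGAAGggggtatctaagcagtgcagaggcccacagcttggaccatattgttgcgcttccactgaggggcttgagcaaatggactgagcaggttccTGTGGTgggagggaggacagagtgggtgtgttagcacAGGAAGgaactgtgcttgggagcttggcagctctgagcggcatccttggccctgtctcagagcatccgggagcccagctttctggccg
Zap70 start 3, chr1:36778734-36779033, plus strand: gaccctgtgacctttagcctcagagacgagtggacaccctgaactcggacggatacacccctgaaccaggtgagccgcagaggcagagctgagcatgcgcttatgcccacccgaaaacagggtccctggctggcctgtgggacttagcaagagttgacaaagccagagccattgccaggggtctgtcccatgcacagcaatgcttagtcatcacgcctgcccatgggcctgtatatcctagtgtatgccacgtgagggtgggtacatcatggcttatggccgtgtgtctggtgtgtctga
The first window holds 1 AGGAAG site and 0 TGTGGT sites, the second 2 and 1, and the third 0 of either. Among all 32851 windows, 35.4% hold AGGAAG and 16.8% hold TGTGGT. Such a match is a description of the letters, not evidence of binding.

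Downstream of the receptor, the values were low and mixed. Lck, the kinase that phosphorylates the CD3 chains, was at 18 to 45 counts in HFDfre and 4 to 48 in HFDfri (log2 fold change -0.33 ± 0.56). Lat, the adaptor on which the signal assembles, was at 17 to 28 counts in HFDfre and 9 to 22 in HFDfri (-0.44 ± 0.40). Skap1, an adaptor of integrin activation, was at 4 to 21 and 0 to 15 counts (-0.98 ± 0.83); it shares 186 exon bases with 2010300F17Rik on the opposite strand. None of these 3 genes passed, their edgeR adjusted p being 0.779, 0.566 and 0.534.

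Of the T cell surface members, Thy1 (ENSMUSG00000032011, chromosome 9, 44043384 to 44048579), a marker of mouse T cells that fibroblasts and nerves also express, was at 1.62, 0.716, 0.459, 0.730 and 0.602 CPM in HFDfre and 0.677, 0.429, 0.502 and 0.428 CPM in HFDfri. HFDfre 1 stood far above the other libraries, and the estimate of -0.69 ± 0.40 on the log2 scale (edgeR adjusted p = 0.350) was -0.31 without it and -0.06 within the 5 libraries low in Gm26924, a locus described with Ighm below. Il7r (ENSMUSG00000003882, chromosome 15, 9505788 to 9530176), the receptor for the survival cytokine interleukin 7, was at 8, 17, 7, 23 and 22 counts in HFDfre and 4, 4, 10 and 11 in HFDfri. As CPM it was at 0.154, 0.265, 0.107, 0.323 and 0.308 against 0.0712, 0.0553, 0.136 and 0.181. The groups overlapped at HFDfre 1 and HFDfre 3, and the log2 fold change was -1.06 ± 0.58 (edgeR adjusted p = 0.323). The adhesion and co-stimulation genes Cd2, Cd5, Cd6 and Cd28 reached at most 28 counts in any library and each was at 0 in at least 1. Ltb, encoding lymphotoxin beta, ranged from 14 to 35 counts in HFDfre and 8 to 40 in HFDfri (-0.50 ± 0.57), and Ptprcap, a partner of CD45, from 8 to 27 and 7 to 26 (-0.20 ± 0.55). Exons of Ptprcap overlap 432 bases of Coro1b and 1224 bases of Rps6kb2, so its reads are uncertain.

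All 5 tested B cell members had estimates under 0, on few reads apart from Ighm. Ighm (ENSMUSG00000076617, chromosome 12, 113418558 to 113422730) had 423, 363, 485, 751 and 216 counts in HFDfre and 179, 255, 194 and 407 in HFDfri. Its CPM was 8.14, 5.65, 7.42, 10.5 and 3.02 in HFDfre and 3.19, 3.53, 2.63 and 6.70 in HFDfri. HFDfre 5 lay with the lower HFDfri libraries and HFDfri 4 with HFDfre. The log2 fold change was -0.80 ± 0.35 (edgeR adjusted p = 0.216), and within the libraries that had under 3% of their counts at Gm26924, a locus that overlaps ribosomal RNA sequence, it was -0.23. These libraries were HFDfre 3, HFDfre 5, HFDfri 1, HFDfri 2 and HFDfri 4.

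Cd22 (ENSMUSG00000030577, chromosome 7, 30865402 to 30880342), an inhibitory co-receptor of B cells, was at 0.789, 1.17, 1.03, 0.534 and 0.714 CPM in HFDfre and 0.783, 0.581, 0.258 and 0.197 CPM in HFDfri. HFDfri 3 and HFDfri 4 lay below all HFDfre libraries, and HFDfri 1 and HFDfri 2 among them. The log2 fold change was -0.90 ± 0.44 (edgeR adjusted p = 0.268); 479 exon bases are shared with an antisense gene, Gm29439. Cd79a (ENSMUSG00000003379, chromosome 7, 24897381 to 24902197), the alpha chain of the B cell receptor's signalling pair, was at 0.462, 0.825, 0.535, 0.365 and 0.140 CPM in HFDfre and 0.338, 0.235, 0.299 and 0.181 CPM in HFDfri. HFDfre held both the highest and the lowest of the 9 values, and the log2 fold change was -0.82 ± 0.50 (edgeR adjusted p = 0.381), or -0.51 without HFDfre 2. Cd79b, the other chain of that pair, was at 8 to 36 counts in HFDfre and 19 to 25 in HFDfri, its log2 fold change being -0.04 ± 0.50, so the members of the pair gave different estimates, each with a wide error. Ms4a1, which encodes CD20, was at 4 to 26 counts in HFDfre and 4 to 24 in HFDfri (-0.08 ± 0.68). Pax5, the factor that fixes B cell identity, never exceeded 6 counts and was at 0 in 3 libraries.

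All 8 tested NK and cytotoxic members had estimates under 0. Ccl5 (ENSMUSG00000035042, chromosome 11, 83525778 to 83530518), a chemokine that memory T cells and NK cells release, had 58, 69, 185, 69 and 43 counts in HFDfre and 43, 29, 36 and 12 in HFDfri. As CPM it was at 1.12, 1.07, 2.83, 0.969 and 0.602 in HFDfre and 0.766, 0.401, 0.489 and 0.197 in HFDfri. HFDfri 1 exceeded HFDfre 5, and the other HFDfri libraries lay below all of HFDfre. The log2 fold change was -1.51 ± 0.49, a level 0.351 times that of HFDfre (edgeR adjusted p = 0.122). HFDfre 3 carried much of it, and without that library the log2 fold change was -1.03. Over the 17 alternatives with an adjusted p it ranged from 0.0545 to 0.502.

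Nkg7 (ENSMUSG00000004612, chromosome 7, 43437073 to 43438249), a granule protein of killer cells, was at 0.712, 0.607, 0.841, 0.225 and 0.266 CPM in HFDfre and 0.214, 0.346, 0.149 and 0.345 CPM in HFDfri. HFDfre 1, HFDfre 2 and HFDfre 3 were above all other libraries, whereas HFDfre 4 and HFDfre 5 lay within HFDfri (log2 fold change -0.999 ± 0.504, edgeR adjusted p = 0.283). Cxcr6 (ENSMUSG00000048521, chromosome 9, 123806475 to 123811760), the receptor for CXCL16 that holds NKT cells and resident lymphocytes in liver sinusoids, had 10, 67, 67, 4 and 10 counts in HFDfre and 13, 16, 8 and 12 in HFDfri. HFDfre 2 and HFDfre 3 held nearly all of the difference, which was -1.37 ± 0.79 on the log2 scale (edgeR adjusted p = 0.348) and -0.91 without HFDfre 2 and -0.59 by limma-voom. Il2rb (ENSMUSG00000068227, chromosome 15, 78479256 to 78495271) was at 0.905, 1.98, 1.06, 0.520 and 0.490 CPM in HFDfre and 0.338, 0.885, 0.760 and 0.971 CPM in HFDfri. The groups overlapped widely (-0.42 ± 0.45, edgeR adjusted p = 0.638), and without HFDfre 2 the log2 fold change was -0.01.

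The killing machinery itself was barely detected. Gzma, the granzyme most typical of NK cells, was at 17, 8, 47, 5 and 12 counts in HFDfre and 0, 6, 0 and 35 in HFDfri (log2 fold change -0.78 ± 1.12). Gzmb was at 0 to 30 counts in HFDfre and 7 to 20 in HFDfri (-0.08 ± 0.80). Prf1, encoding perforin, was at 0 in 5 libraries and at most 24 counts, in HFDfri 1. Ncr1, the receptor NKp46, was listed at 0 in all 4 HFDfri libraries and held 7 and 10 counts in HFDfre 1 and HFDfre 3, so no fold is given. Klrd1, encoding CD94, was at 15 to 42 counts in HFDfre and 3 to 26 in HFDfri (-0.95 ± 0.57), and Klrb1c, the NK1.1 antigen, at 9 to 26 and 0 to 27 (-0.66 ± 0.73). None of these genes was called, and Ncr1 and Prf1 were too low to be tested. Klrb1c shares 413 exon bases with Gm44511 on the same strand, so its reads are uncertain.

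RefSeq promoter windows were found for 20 of the 34 members, 10 of T cells, 3 of B cells and 7 of NK cells. TGTGGT, on either strand, occurred in a window of 7 of 7 NK members, 4 of 10 T cell members and 0 of 3 B cell members, against 18.9% of all 27025 genes with a window. AGGAAG occurred in 3 of 7, 8 of 10 and 1 of 3, against 38.4% of all genes. The NK members Ccl5, Klrd1 and Il2rb had no window. The windows of 4 NK members (RefSeq, GRCm38.p6, 5′ to 3′, same capitals as above) are shown because all 7 NK members with a window hold TGTGGT.
Nkg7, chr7:43436888-43437187, plus strand: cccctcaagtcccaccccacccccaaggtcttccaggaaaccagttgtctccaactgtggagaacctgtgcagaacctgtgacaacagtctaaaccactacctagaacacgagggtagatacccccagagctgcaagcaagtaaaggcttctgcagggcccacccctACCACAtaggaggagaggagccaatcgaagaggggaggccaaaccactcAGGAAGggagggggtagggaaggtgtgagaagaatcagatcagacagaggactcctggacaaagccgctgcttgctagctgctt
Cxcr6, chr9:123806227-123806526, plus strand: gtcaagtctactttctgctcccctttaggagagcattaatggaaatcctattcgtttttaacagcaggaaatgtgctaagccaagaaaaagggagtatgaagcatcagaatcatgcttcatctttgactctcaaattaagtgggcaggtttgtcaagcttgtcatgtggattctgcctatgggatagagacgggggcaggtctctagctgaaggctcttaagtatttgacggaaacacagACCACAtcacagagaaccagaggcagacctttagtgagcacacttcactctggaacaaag
Gzma, chr13:113100932-113101231, minus strand: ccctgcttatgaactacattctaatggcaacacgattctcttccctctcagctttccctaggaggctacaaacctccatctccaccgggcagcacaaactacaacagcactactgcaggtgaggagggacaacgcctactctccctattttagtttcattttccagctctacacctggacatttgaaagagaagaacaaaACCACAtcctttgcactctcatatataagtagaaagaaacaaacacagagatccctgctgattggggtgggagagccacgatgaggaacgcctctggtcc
Gzmb, chr14:56262285-56262584, minus strand: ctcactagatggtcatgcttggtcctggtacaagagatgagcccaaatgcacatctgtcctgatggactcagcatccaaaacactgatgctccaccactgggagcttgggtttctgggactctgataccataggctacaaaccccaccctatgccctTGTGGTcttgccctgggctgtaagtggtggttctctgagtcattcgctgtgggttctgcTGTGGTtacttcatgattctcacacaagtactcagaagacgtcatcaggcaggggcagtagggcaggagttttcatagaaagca
The site lies on the reverse strand, read as ACCACA, in Nkg7, Cxcr6 and Gzma, and on the forward strand at 2 places in Gzmb. No binding was measured in these livers.

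**Figure D4:**
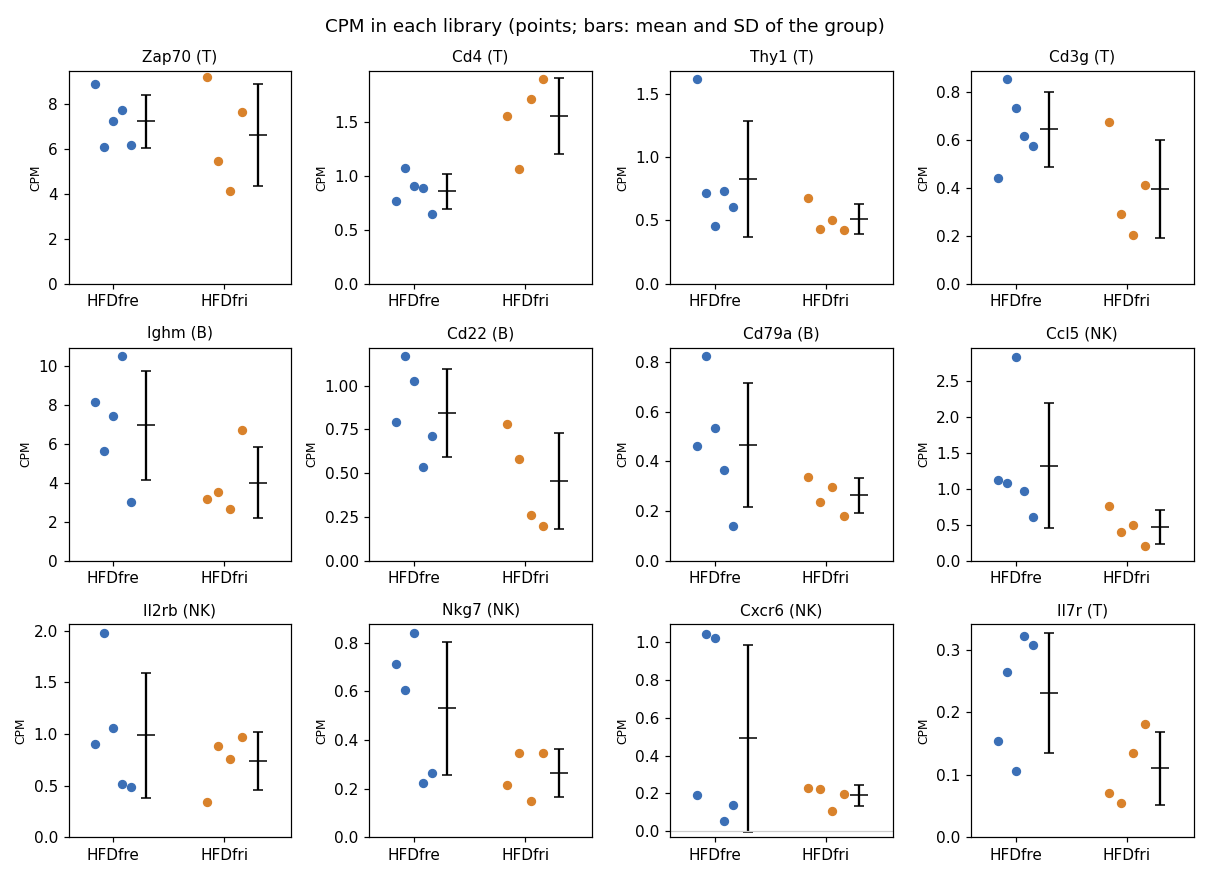
CPM of 12 members in each library (points) with the mean and SD of each group (bars). These are the members of highest level in each class and the 6 with the lowest unadjusted p; in Cd4 HFDfri lies higher, and HFDfre 3 stands above the rest in Ccl5, HFDfre 1 to 3 in Nkg7 and HFDfre 2 and 3 in Cxcr6.

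The summed NK members had an SD of 2.32 CPM over the HFDfre libraries and 0.396 CPM over those of HFDfri. HFDfre 3 had the highest CPM of all 9 libraries in 15 of the 34 members and HFDfre 2 in 8, whereas HFDfre 5 was highest in 0. The summed CPM of the 10 NK members was 4.08, 5.93, 7.81, 2.82 and 2.17 in HFDfre and 2.30, 2.93, 2.06 and 2.73 in HFDfri. For the 16 T cell members other than Zap70 and Cd4 it was 5.99, 5.03, 6.81, 3.92 and 3.09 in HFDfre and 3.51, 3.14, 3.31 and 3.37 in HFDfri. In both sums HFDfre 1, HFDfre 2 and HFDfre 3 were the 3 highest libraries, and HFDfre 4 and HFDfre 5 were close to HFDfri. For the 5 B cell members other than Ighm, HFDfre 1, HFDfre 2 and HFDfre 3 were again highest, at 1.91, 2.74 and 2.29 CPM, against 0.869 to 1.71 in the other 6 libraries.

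Sums of the markers of all leukocytes and of macrophages were also highest in HFDfre 1, HFDfre 2 and HFDfre 3. The sum of the 8 dendritic cell markers did not follow. It was 5.49 to 9.1 CPM in HFDfre, highest in HFDfre 5, and 4.84 to 6.93 CPM in HFDfri. The 14 genes that mark all leukocytes, among them Ptprc, which encodes CD45, summed to 44.1, 46.7 and 47.2 CPM in HFDfre 1, HFDfre 2 and HFDfre 3, to 26.1 and 26.95 CPM in HFDfre 4 and HFDfre 5, and to between 27.3 and 32.0 CPM in HFDfri. The 12 Kupffer cell and macrophage markers in the table summed to 256, 275 and 255 CPM in those first 3 libraries, 153 and 145 CPM in HFDfre 4 and HFDfre 5, and 153 to 216 CPM in HFDfri. As a share of the leukocyte marker sum, the NK members were at 9.26, 12.7, 16.6, 10.8 and 8.05% in HFDfre and 7.88, 9.44, 7.55 and 8.53% in HFDfri, and the 16 T cell members at 10.8 to 15.0% and 10.1 to 12.1%. Both shares overlapped between the diets. The part of the leukocyte content in the lower values of HFDfri was not tested. Of the 14 leukocyte markers 11 had estimates under 0, the median being -0.52. At an unadjusted p under 0.05 were 4 of the 14, all lower, or 28.6% against 21.2% of all genes in either direction and 9.79% lower, and 0 passed the adjusted threshold. Ptprc itself was at 4.60, 5.40, 6.25, 3.09 and 3.16 CPM in HFDfre and 3.92, 3.61, 3.08 and 3.21 CPM in HFDfri, and edgeR gave -0.38 ± 0.22 on the log2 scale (adjusted p = 0.348). The medians of the other lists were -0.22 for macrophage, -0.59 for dendritic cell, -0.09 for endothelial, -0.13 for stellate and fibroblast and -0.24 for cholangiocyte markers. They were -0.03 for hepatocyte, -0.32 for red cell and platelet, 0.36 for neutrophil and 0.02 for pancreas and fat markers. The share of a list at an unadjusted p under 0.05 (edgeR) was lowest, at 0%, for macrophage and neutrophil markers. It was highest, at 33.3%, for stellate and fibroblast markers (3 of 9 tested) and for pancreas and fat markers (1 of 3 tested), against 21.2% of all genes. Neutrophil markers, of which 4 of 10 were tested, were at 0.674 to 1.56 CPM in sum in HFDfre and 0.221 to 2.76 CPM in HFDfri.

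**Figure D5:**
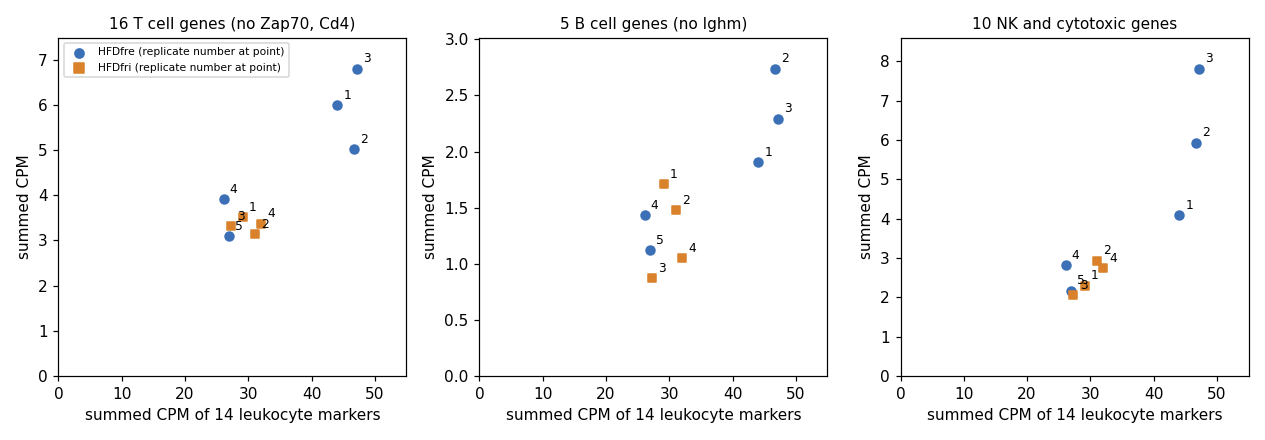
Summed CPM of the T cell members without Zap70 and Cd4, the B cell members without Ighm, and the NK members (y axes) against the summed CPM of 14 leukocyte markers (x axis), 1 point per library with its replicate number. HFDfre 1, HFDfre 2 and HFDfre 3 lie at the upper right in each panel, and HFDfre 4 and HFDfre 5 lie at the left, just under the HFDfri libraries on the x axis and near them on the y axes.

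Partners of these genes were read from 5 further lists with 119 distinct genes in the table, 70 of which were tested. Of these 59 had estimates under 0 and 11 above, where 50.9% of all genes were under 0. An unadjusted p under 0.05 was found for 9, which is 12.9% against 21.2% of all genes. Past the adjusted threshold, which 1.05% of all genes passed, were 2 genes, Tox and Cxcl10. Of the 14 tested T cell receptor and signalling partners 13 had estimates under 0, 2 of them at an unadjusted p under 0.05. Estimates under 0 were also found for 11 of 13 T cell regulators and for 16 of 18 ligands, receptors and cytokines. Trbc2, a constant gene of the T cell receptor beta chain, ranged from 18 to 64 counts in HFDfre and 16 to 30 in HFDfri (edgeR adjusted p = 0.214), and Trac, the alpha chain constant gene, was at 0 in 4 libraries, HFDfre 4 and HFDfri 2, HFDfri 3 and HFDfri 4. Of the 16 tested B cell partners 12 were lower and 0 had an unadjusted p under 0.05. Of the 9 tested NK partners 7 were lower, and 24 of the 33 on that list, Eomes, Gzmk and Klrg1 among them, were too low to be tested.

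Tox (ENSMUSG00000041272, chromosome 4, 6686353 to 6991557), a nuclear factor needed for CD4 T cell and innate lymphoid cell development, fell from 8.26, 5.99, 6.71, 7.82 and 4.63 CPM in HFDfre to 3.37, 3.50, 3.72 and 2.50 CPM in HFDfri. Every HFDfri library lay below every HFDfre library, the fitted difference being -1.03 ± 0.19 on the log2 scale (edgeR adjusted p = 0.0354). Over 18 alternatives the difference stayed between -1.14 and -0.87. In 8 of them it passed, and the call was lost when any 1 of the 5 HFDfre libraries, HFDfri 3 or HFDfri 4 was left out, with the replicate block, with the Gm26924 share as a covariate and within the 5 libraries low in it. Per kilobase Tox was at 0.679 CPM, against 0.163 CPM for Cd3g, and HFDfre 4 was its second highest library. It shares 260 exon bases with the antisense gene Gm11802.

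Ligands that draw or sustain these cells came next. Cxcl10 (ENSMUSG00000034855, chromosome 5, 92346638 to 92348889), an interferon-induced chemokine that attracts T and NK cells through CXCR3, fell from 4.37, 3.78, 5.84, 4.16 and 4.58 CPM in HFDfre to 2.19, 1.98, 2.74 and 2.93 CPM in HFDfri. The groups did not overlap (-0.89 ± 0.18 on the log2 scale, edgeR adjusted p = 0.0464), the difference stayed between -1.14 and -0.79 over 18 alternatives, and the call held in 5 of them and, among the 9 fits that leave out 1 library, only without HFDfri 1. Of its exons 133 bases are shared with Art3 on the opposite strand. Its receptor Cxcr3 was at 0.732, 0.327, 0.535, 0.267 and 0.406 CPM in HFDfre and 0.249, 0.0830, 0.177 and 0.0987 CPM in HFDfri, without overlap, but missed the adjusted threshold (log2 fold change -1.57 ± 0.51, edgeR adjusted p = 0.120). Cxcl9, a second ligand of CXCR3, gave -0.65 ± 0.27 (edgeR adjusted p = 0.196), or -0.37 without HFDfre 3. Il15 was at 1.37, 1.96, 1.79, 0.927 and 1.53 CPM in HFDfre and 0.285, 1.29, 0.570 and 1.07 CPM in HFDfri, overlapping through HFDfre 4 (edgeR adjusted p = 0.218). Il7, at 4 to 20 counts in HFDfre and 0 to 7 in HFDfri, was too low to be tested. Cxcl16, the ligand of CXCR6, was at 1.94 to 4.70 CPM in HFDfre and 2.99 to 4.04 CPM in HFDfri, the range of HFDfri lying inside that of HFDfre (edgeR adjusted p = 0.803). Exons of Zmynd15 on the opposite strand cover 552 bases of it.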

How the data were processed

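RNA-seq of 9 liver libraries was used. Per the study's methods, RNA was extracted with TRIzol and paired-end reads of 150 bases were aligned and quantified with HISAT2; the submitters' processing notes also name StringTie and mm10. The library kit differs between the labels and the methods, and versions, annotation and use of strand are not given in the sources used here. The authors deposited estimated counts per gene, whole numbers not scaled between libraries, which were rounded, leaving them as they were. GENCODE M21 (GRCm38), which holds 96.5% of the 33211 identifiers, gave coordinates and exon lengths.

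Genes kept by filterByExpr were tested in edgeR 4.0.16 (R 4.3.3, glmQLFTest) after TMM scaling, no covariate and Benjamini-Hochberg adjustment over 14220 genes. SE is the log2 fold change divided by the square root of F. limma 3.58.1 (voom) and DESeq2 1.42.0, the study's test, were alternatives, as were other scalings, no filter, counts divided by 4, a replicate term, the Gm26924 share and leaving out each library. The script was tested on simulated data. The members and lists were chosen with earlier results of these data known. Values in every library are given for the 4, 3 and 4 members of highest mean CPM among T, B and NK cells and the 6 with the lowest p; of other genes, list members past the adjusted threshold, Cxcl16, Il15, Il7 and Ptprc were named, and further ones were chosen after their values were seen. The labels do not say that libraries came from separate animals, so p-values measure the spread between these libraries.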

Additional observations from a re-analysis of the deposited data

Results flagged for a closer look

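Within each group, each member and the 3 class sums were screened for single distant libraries, by the gap of the highest or lowest value to its neighbour as a share of the range of the group. This gave 7 cases in 73 sets of values. The cut-offs flag about 1 in 20 sets, or 3.65, only where values follow a normal distribution. Counts near 0 do not, as a single library with reads among zeros is flagged, and the class sums repeat their members. The 7 cases therefore cannot be compared with 3.65, and they are listed as a description only. In HFDfre, Cd3d was at 0.413 CPM in HFDfre 3 and 0.0560 to 0.0934 CPM in the others (gap 0.895), Cd8a at 0.795 CPM in HFDfre 3 and at most 0.168 CPM in the others (gap 0.789), and Ccl5 at 2.83 CPM in HFDfre 3 and 0.602 to 1.12 CPM in the others (gap 0.769). HFDfre 3 is thus the far library in 3 of the 4 cases of its group. The other was Thy1, at 1.62 CPM in HFDfre 1 and 0.459 to 0.730 CPM elsewhere (gap 0.766).

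In HFDfri, Gzma was at 0.576 CPM in HFDfri 4 and at most 0.0830 CPM in the others (gap 0.856), and Prf1 was at 0.427 CPM in HFDfri 1 and at most 0.0658 CPM in the others (gap 0.846). Cd8b1 was at 0.138 CPM in HFDfri 2 and at 0 in the others (gap 1). These 3 cases rest on 35, 24 and 10 counts.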

How the results depend on the processing

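No member passed the adjusted threshold in any of the 18 alternatives. DESeq2 gave no adjusted p for 10 of the 12 members whose libraries are given in full, so its 0 says little, and an unadjusted p under 0.05 was found for 3 members by edgeR, 4 by DESeq2 and 3 by limma-voom. That number was between 2 and 5 when 1 library was left out, 5 without HFDfre 4, HFDfre 5, HFDfri 1 or HFDfri 4. The class medians stayed below 0 throughout, from -0.50 (without HFDfri 4) to -0.34 (without HFDfre 1) for T, -0.95 (without HFDfre 5) to -0.51 (without HFDfre 2) for B and -1.25 (without HFDfri 2) to -0.65 (without HFDfri 1) for NK members when 1 library was left out. Within the 5 libraries under a 3% share of Gm26924 the B cell median was -0.27. Zap70 changed sign there, to 0.15, and ranged from -0.34 to 0.0414 when 1 library was left out, positive without HFDfri 3.

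Over all genes the 150 calls compared with 1068 by DESeq2, 76 after scaling by totals, 72 without the filter, 93 given the Gm26924 share as a covariate and 2 within the 5 libraries (1401 at an unadjusted p under 0.05), and 6 (without HFDfre 3 or HFDfre 5) to 1106 (without HFDfri 1) when 1 library was left out. The cause was not tested, apart from the filter and the smaller samples, which change what is tested. With counts divided by 4, 8 members passed the filter in place of 27, 7 of them lower in HFDfri, so depth limits what can be said of single members. The replicate numbers do not pair the libraries: libraries of one number correlated between -0.136 and 0.0813, over 0.1 in 0 of 4 pairs. Under the replicate block edgeR called 0 genes, and 2536 had an unadjusted p below 0.05, 4 of them members.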

Other observations

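Zbtb16 and Themis, partner genes of the T cell members, had patterns of their own. Per kilobase of exon Zbtb16 was at 2.001 CPM, against 0.163 CPM for Cd3g. Themis, a thymocyte signalling protein, had 120 to 599 counts in HFDfre and 47 to 164 in HFDfri. Its CPM was 2.33, 1.87, 8.61, 8.41 and 5.47 in HFDfre and 0.837, 2.27, 1.74 and 1.55 in HFDfri. HFDfre 3, HFDfre 4 and HFDfre 5 stood above the rest, an order unlike that of the members. The log2 fold change was -1.74 ± 0.46 (edgeR adjusted p = 0.0840), and it passed in 1 of 18 alternatives, DESeq2. Zbtb16, encoding the NKT cell factor PLZF, gave 0.92 ± 0.33 (edgeR adjusted p = 0.148).

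Antibody genes other than Ighm gave estimates of either sign, none called. Igkc, the kappa light chain constant gene, gave a log2 fold change of -0.69 ± 0.42, Igha, the IgA heavy chain, 0.02 ± 0.46, and Ighg2b 0.69 ± 0.70, with edgeR adjusted p of 0.384, 0.988 and 0.610. Igha was at 206 counts in HFDfre 4 and 19 to 86 in the other 8 libraries. All genes of these paragraphs were picked with their values known.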
